A study of Homo sapiens with 12 samples.

Results

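The genes described here lie on chromosome 10, from ATE1 to the end of the long arm (10q), a stretch that holds MGMT. Their list names 59 genes, and 58 of them had a value here, of 18417 genes in all. ZNF511 had none, since its only probe set is assigned to several gene symbols. The genes were chosen by their positions together with their measured levels in the 4 groups of cells, so that every difference between groups given below describes genes picked for those levels. Counts of calls are printed beside the share or number of all genes called by the same rule. Nothing is read from that pair of values, and counts from refits under other settings are given alone.

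The cells were A172, an adherent line established from a human glioblastoma, harvested on day 4. In each of 12 cultures, transcript levels were read on an Affymetrix Human Gene 1.0 ST array, whose probe sets cover the exons of a gene. HSS1 clone 7 and HSS1 clone 8 had been stably transfected with pcDNA3.1 carrying hHSS1, a gene now named EMC10, with a His tag at the C-terminal end. The mock line had been stably transfected with the empty pcDNA3.1 vector, and the wild-type cells had not been transfected. According to the study, stable clones were kept with the drug G418 in the medium. Comparisons with wild-type cells may thus also take in this drug, whose part was not tested. Each group had 3 arrays from separate cultures, but each clone and the mock line is 1 cell line, so that errors measure the spread between cultures and not between lines made anew. Both clones carried the same vector as the mock line, but with the insert. An effect of the vector without the insert and a property of the single mock line cannot be told apart. An array of a whole culture also cannot tell fewer cells with a transcript from less transcript per cell.

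MGMT encodes the methyltransferase that removes alkyl groups from guanine in DNA, and so repairs the lesion made by the drug temozolomide. In many glioblastomas its promoter is methylated at CpG dinucleotides, and such tumours respond better to alkylating drugs. The end of 10q also holds genes of the spindle checkpoint, proliferation, chromatin regulation, metabolism and cell signalling, and the long arm of chromosome 10 is often lost in glioblastoma. Neither DNA methylation nor DNA copy number was measured in these samples.

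Levels are deposited log2 values, and differences are log2 differences unless a fold is named. A gene is called expressed where its mean over the 12 arrays was at or above 9.21, the median of all gene means, and near background where it was below 7.80, the lower quartile. Genes in between are said to be at middling levels. Array medians lay between 8.603 and 8.671, and the SD of the median gene between cultures was 0.082 in clone 7, 0.144 in clone 8, 0.055 in mock and 0.071 in wild-type cells. EMC10 averaged 11.87 in clone 7, 12.02 in clone 8, 9.35 in mock and 10.75 in wild-type cells, so that mock lay below wild-type at this gene too, with a difference of -1.40. Of the 9 glial and glioma markers VIM, NES and SOX9 were expressed, GFAP and ALDH1L1 were at middling levels, and S100B, AQP4, SLC1A2 and SLC1A3 were near background. The measured leukocyte and endothelial markers were near background or at middling levels. Of the 4 epithelial markers, KRT8 and KRT18 were expressed, while EPCAM and CDH1 were near background. The mean level over the glial markers was 8.44 in clone 7, 8.52 in clone 8, 8.55 in mock and 8.58 in wild-type cells. Within that list NES, which encodes the intermediate filament protein nestin, differed most between groups, with means of 8.86 in clone 7, 8.98 in clone 8, 9.65 in mock and 10.08 in wild-type cells, a wider spread than that of any gene of the segment. The part of cell makeup in the results below was not tested.

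Promoters of 50 of the 59 listed genes were found in a RefSeq table (GRCh38.p14) of the 250 bases before and the 50 bases after each gene's start. They are shown for MGMT, whose level hardly differed between groups, and for PPP2R2D and ZRANB1, whose levels were low in mock, as examples of windows with many and with few CpG dinucleotides. The windows were searched for the letters CG, which read the same on both strands and are printed in capitals, 5′ to 3′. The MGMT window (chr10:129466991-129467290, plus strand) and the PPP2R2D window (chr10:131900758-131901057, plus strand) each held 45 CG, a number reached or passed in 3.39% of 27305 RefSeq promoters. The ZRANB1 window (chr10:124941873-124942172, plus strand) held 3 CG, which 81.0% of promoters reached or passed.
MGMT: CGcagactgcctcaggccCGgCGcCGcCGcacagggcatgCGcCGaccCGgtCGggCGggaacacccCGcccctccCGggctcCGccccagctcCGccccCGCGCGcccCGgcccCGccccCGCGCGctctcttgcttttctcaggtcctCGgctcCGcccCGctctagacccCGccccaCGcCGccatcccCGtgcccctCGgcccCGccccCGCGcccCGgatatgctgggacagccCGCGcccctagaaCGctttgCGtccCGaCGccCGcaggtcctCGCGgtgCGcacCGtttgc
PPP2R2D: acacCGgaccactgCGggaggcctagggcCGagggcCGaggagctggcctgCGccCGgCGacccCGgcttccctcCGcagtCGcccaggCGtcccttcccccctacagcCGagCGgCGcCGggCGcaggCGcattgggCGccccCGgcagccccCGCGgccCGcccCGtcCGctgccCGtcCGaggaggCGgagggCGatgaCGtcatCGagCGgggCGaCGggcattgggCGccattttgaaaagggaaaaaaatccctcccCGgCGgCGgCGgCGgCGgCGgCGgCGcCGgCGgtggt
ZRANB1: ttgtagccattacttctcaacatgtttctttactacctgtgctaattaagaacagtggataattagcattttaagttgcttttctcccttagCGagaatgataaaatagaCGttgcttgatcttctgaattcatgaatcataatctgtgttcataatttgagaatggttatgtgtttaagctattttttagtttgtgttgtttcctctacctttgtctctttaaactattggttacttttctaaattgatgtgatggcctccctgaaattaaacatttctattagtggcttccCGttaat
Among the 50 matched windows the number of CG lay between 2 and 53, with medians of 36 in 21 expressed genes, 29 in 17 genes at middling levels and 10 in 11 genes near background. The corresponding medians over all genes were 27, 19 and 6.

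MGMT itself was at a middling level in all 4 groups. Its log2 levels (probe set 7931379) were 8.51, 8.36 and 8.68 in clone 7, 8.84, 8.49 and 8.73 in clone 8, 8.44, 8.38 and 8.57 in mock, and 8.61, 8.38 and 8.49 in wild-type cells. The groups overlapped, and the lowest and highest single arrays both belonged to the clones. The mock mean differed from the wild-type mean by -0.03 ± 0.10 (SE), and the mean of both clones differed from mock by 0.14 ± 0.09 and from wild-type by 0.11 ± 0.09. MGMT was called in none of the 6 comparisons. The pattern of its expressed neighbours, described next, was thus not seen at MGMT. Its probe set may hold little signal, which was not tested. Of the 19 listed genes at middling levels, 1, IKZF5, was called lower in mock than in wild-type cells (0.375% of all genes). The median difference over these 19 was -0.13. ACADSB, an unlisted gene of this stretch at a middling level, was also called lower.

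In the mock line, the expressed genes of the segment lay below their levels in wild-type cells, while those near background did not. Of the 28 expressed genes, 25 were below wild-type, with a median difference of -0.56 and a range that ran to -0.78 at ATE1 and to 0.06 at FOXI2. The median over all 9209 expressed genes was 0.01 in the same comparison. The difference was -0.4 or lower in 18 of the 28, against 1.49% of all expressed genes. Of the 19 genes at middling levels, the median was -0.13, and of the 11 near background it was 0.05. A gene was called lower or higher at an adjusted p under 0.05 (limma, Benjamini-Hochberg over all genes) and a difference of at least 1.5-fold, which is 0.585 on the log2 scale. By this rule 14 of the 58 genes were lower in mock than in wild-type cells (0.375% of all genes) and 0 were higher (0.299% of all genes). Of these 14, 13 were expressed and 1, IKZF5, was at a middling level. By the adjusted p alone, 21 were lower (1.24% of all genes) and 0 higher (1.0% of all genes). The calls of EDRF1 and MKI67 were lost without wild-type replicate 3, that of EDRF1 also without mock replicate 2, and MKI67 also once array medians were subtracted.

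**Figure D1:**
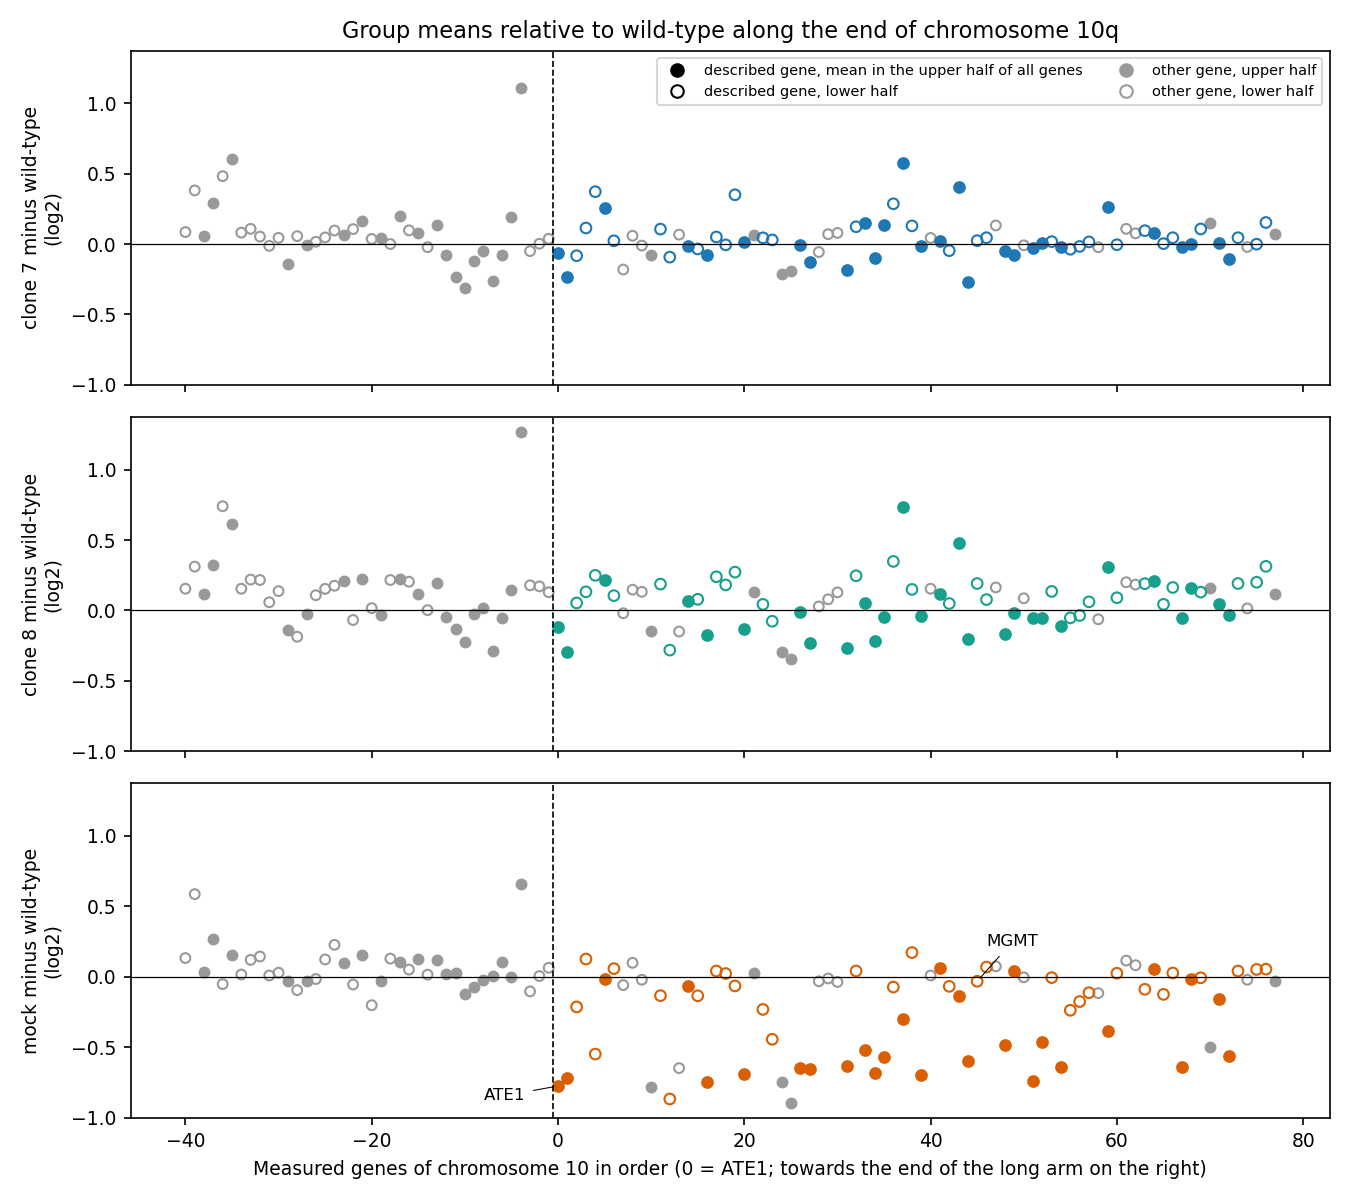
Difference of the group mean from the wild-type mean (log2) for clone 7 (top), clone 8 (middle) and mock (bottom), for measured genes of chromosome 10 in their order, with 0 at ATE1 and the end of the long arm on the right. Filled points are expressed genes, open points are the rest, coloured points are the described genes and grey points other genes. Filled points right of the dashed line mostly lie between -0.4 and -0.9 in mock and near 0 in the clones. MGMT lies near 0 in mock and clone 7 and somewhat above 0 in clone 8.

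The same genes can be followed array by array. All 3 mock arrays lay below each of the 9 others in 29 of the 58 genes, against 2.5% of all genes. This held for 21 of the 28 expressed genes, 7 of the 19 at middling levels and 1 of the 11 near background, FANK1. The median distance of the 28 expressed genes from their wild-type mean was -0.03, -0.05 and 0.04 on the clone 7 arrays, -0.09, 0.02 and -0.11 on the clone 8 arrays, and -0.58, -0.56 and -0.58 on the mock arrays. The wild-type arrays themselves gave -0.04, -0.01 and 0.03. The mock arrays therefore stood together and apart from the rest, and the clone arrays lay around the wild-type arrays, with clone 8 the most spread. In the median member, the SD over 3 arrays was 0.068 in clone 7, 0.168 in clone 8, 0.052 in mock and 0.072 in wild-type cells.

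**Figure D2:**
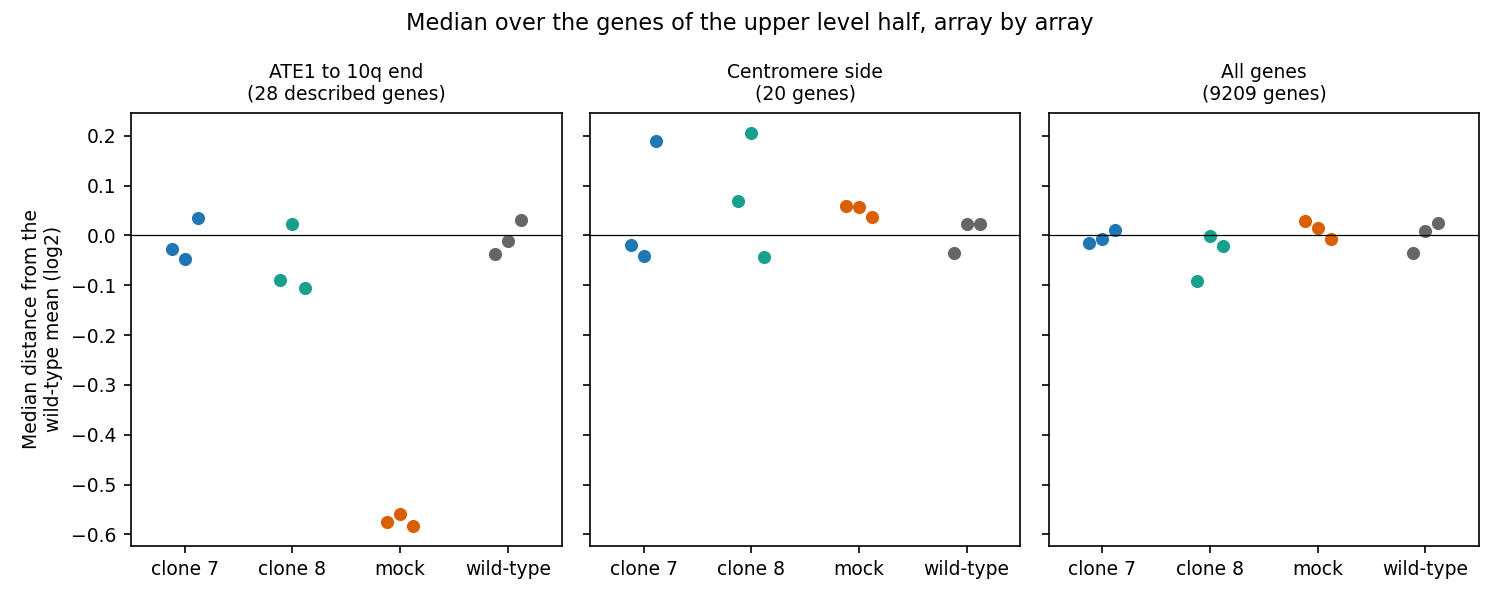
Median distance from the wild-type mean (log2) on each of the 12 arrays, over the 28 expressed genes from ATE1 to the 10q end (left), 20 expressed genes on the centromere side of ATE1 (middle) and all 9209 expressed genes (right). The mock points lie between -0.58 and -0.56 in the left panel and between 0.04 and 0.06 in the middle panel. The clone points of the middle panel lie between -0.04 and 0.21.

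Among 6 genes of DNA repair, mitosis and checkpoints, 5 were called lower in mock than in wild-type cells (0.375% of all genes), and MGMT was the one that was not. BUB3, which holds the spindle checkpoint until chromosomes are attached, had levels (probe set 7931187) of 11.14, 11.21 and 11.35 in clone 7, 11.14, 11.33 and 10.93 in clone 8, 10.60, 10.53 and 10.54 in mock, and 11.20, 11.35 and 11.37 in wild-type cells. Mock stood below all other arrays, while clone 8 replicate 3 was the lowest of the rest. BUB3 was 1.68-fold lower in mock than in wild-type cells (-0.75 ± 0.10 SE) and 0.62 ± 0.08 higher in the clones than in mock, a call that was lost without clone 8 replicate 2. NSMCE4A, a subunit of the SMC5/6 complex that acts in DNA repair, had levels (probe set 7936777) of 9.49, 9.63 and 9.85 in clone 7, 9.63, 9.77 and 9.39 in clone 8, 9.10, 9.21 and 9.22 in mock, and 9.89, 9.81 and 9.98 in wild-type cells. Its clone arrays lay between mock and wild-type with some overlap with wild-type. The difference between mock and wild-type was -0.72 ± 0.10, and that between the clones and wild-type was -0.27 ± 0.09, the lowest of the 58 genes. BCCIP, a partner of BRCA2 and of the CDK inhibitor p21, had levels (probe set 7931268) of 9.61, 9.50 and 9.75 in clone 7, 9.38, 9.69 and 9.43 in clone 8, 9.08, 9.06 and 8.96 in mock, and 9.61, 9.73 and 9.81 in wild-type cells. The groups other than mock overlapped. Its difference was -0.68 ± 0.09 in mock against wild-type and 0.53 ± 0.08 in the clones against mock. MKI67, which encodes the proliferation marker Ki-67, averaged 11.71, 11.77, 11.38 and 11.98 in clone 7, clone 8, mock and wild-type cells. TUBGCP2, a component of the gamma-tubulin ring, averaged 9.93, 9.90, 9.32 and 9.96 in the same order.

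Of 12 measured genes of transcription and chromatin, 3 were called lower in mock than in wild-type cells (0.375% of all genes) and 1 higher in both clones than in mock (0.407% of all genes). CTBP2, a corepressor that binds many repressor proteins, had levels (probe set 8180351) of 11.11, 11.20 and 11.20 in clone 7, 10.996, 11.19 and 11.01 in clone 8, 10.69, 10.62 and 10.62 in mock, and 11.27, 11.30 and 11.32 in wild-type cells. Mock was lowest and wild-type highest, with no overlap between either of them and the clones. The difference was -0.66 ± 0.07 in mock against wild-type, while a second and dimmer CTBP2 probe set gave -0.37, and the call was lost on the mean of both. IKZF5, a zinc finger protein of the Ikaros family, averaged 9.32 in clone 7, 9.14 in clone 8, 8.55 in mock and 9.42 in wild-type cells. Its difference between mock and wild-type, -0.87 ± 0.13, was the lowest of the 58 genes, and it was the 1 gene of this group called in the clones against mock. EDRF1, a regulator of erythroid genes, gave -0.63 ± 0.11 in mock against wild-type. The homeobox gene HMX3, the forkhead gene FOXI2, TCERG1L, and UTF1, known from embryonic stem cells, counted as expressed but differed between mock and wild-type by -0.07, 0.06, 0.04 and 0.05. The rest of the group, at middling levels or near background, ranged between -0.14 (HMX2) and 0.07 (EBF3).

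Of 13 enzymes of metabolism and of RNA or protein modification, 2 were called lower in mock than in wild-type cells (0.375% of all genes) and 5 higher in both clones than in mock (0.407% of all genes). ATE1, which adds arginine to proteins and so marks them for breakdown, had levels (probe set 7936762) of 10.02, 10.03 and 10.21 in clone 7, 9.96, 10.27 and 9.88 in clone 8, 9.42, 9.35 and 9.37 in mock, and 10.05, 10.13 and 10.29 in wild-type cells. The clone and wild-type arrays overlapped and mock stood below them. ATE1 was 1.71-fold lower in mock than in wild-type cells (-0.78 ± 0.10) and 0.68 ± 0.09 higher in the clones than in mock. OAT, the ornithine aminotransferase of mitochondria, had levels (probe set 7936871) of 11.24, 11.16 and 11.23 in clone 7, 10.98, 11.16 and 11.04 in clone 8, 10.51, 10.49 and 10.52 in mock, and 11.12, 11.18 and 11.28 in wild-type cells. Mock was low on all arrays, and the clone 8 mean lay slightly under that of clone 7. The differences were -0.69 ± 0.07 in mock against wild-type and 0.63 ± 0.06 in the clones against mock. UROS, an enzyme of haem synthesis, had levels (probe set 7936937) of 11.30, 11.23 and 11.18 in clone 7, 11.11, 11.13 and 11.17 in clone 8, 10.58, 10.56 and 10.56 in mock, and 11.07, 11.09 and 11.10 in wild-type cells. Here the clone arrays all lay at or just above the highest wild-type array, and mock lay below all. UROS was called higher in both clones against mock, at 0.62 ± 0.05, while its -0.52 ± 0.05 in mock against wild-type fell short of 1.5-fold.

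DHX32, a relative of the DEAH-box RNA helicases, had levels (probe set 7936949) of 9.97, 9.86 and 9.94 in clone 7, 9.56, 9.95 and 9.70 in clone 8, 9.22, 9.23 and 9.21 in mock, and 9.71, 9.77 and 9.88 in wild-type cells. Clone 8 spanned the wild-type range and mock lay under all others. Its difference was -0.57 ± 0.09 in mock against wild-type and 0.61 ± 0.08 in the clones against mock, which was no longer called without clone 8 replicate 2. INPP5A, a phosphatase that ends inositol trisphosphate signals, had levels (probe set 7931479) of 10.03, 10.11 and 10.21 in clone 7, 10.16, 10.33 and 9.97 in clone 8, 9.43, 9.59 and 9.37 in mock, and 9.79, 9.85 and 9.90 in wild-type cells. The 4 groups fell into 3 tiers, with both clones above wild-type and wild-type above mock. The differences were -0.38 ± 0.09 in mock against wild-type, 0.67 ± 0.08 in the clones against mock and 0.29 ± 0.08 in the clones against wild-type. CHST15, a sulfotransferase of chondroitin sulfate, was also higher in the clones than in wild-type cells, by 0.31 ± 0.06, with mock at -0.06 ± 0.07. The iron-sulfur protein GLRX3 and the mitochondrial GTPase MTG1 had -0.48 and -0.56 in mock against wild-type. The phosphatase LHPP, the polyamine oxidase PAOX, PSTK and the fucose mutarotase FUOM had -0.23, -0.16, -0.13 and -0.01, and CYP2E1, a liver cytochrome near background here, had 0.05.

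Of 9 genes of signalling, ubiquitin and cell death, 3 were called lower in mock than in wild-type cells (0.375% of all genes) and 4 higher in both clones than in mock (0.407% of all genes). PPP2R2D, a regulatory subunit of protein phosphatase 2A, had levels (probe set 7931405) of 10.72, 10.70 and 10.93 in clone 7, 10.67, 10.996 and 10.60 in clone 8, 10.12, 10.03 and 10.05 in mock, and 10.79, 10.78 and 10.86 in wild-type cells. Clone 8 held both the highest and, after mock, the lowest array. Its difference was -0.74 ± 0.10 in mock against wild-type and 0.70 ± 0.08 in the clones against mock. DOCK1, an activator of the GTPase Rac in migration and engulfment, had levels (probe set 7931293) of 10.49, 10.52 and 10.64 in clone 7, 10.52, 10.74 and 10.32 in clone 8, 9.92, 9.86 and 9.83 in mock, and 10.50, 10.60 and 10.60 in wild-type cells. The clone and wild-type means lay within 0.04 of each other, and mock stood apart with -0.70 ± 0.09 against wild-type. ZRANB1, a deubiquitinase also called TRABID, gave -0.65 ± 0.09 in mock against wild-type and 0.64 ± 0.07 in the clones against mock. PLEKHA1, an adaptor that binds a phosphoinositide lipid, averaged 9.43 in clone 7, 9.31 in clone 8, 8.51 in mock and 9.06 in wild-type cells. Its -0.55 ± 0.09 in mock against wild-type was not called, while its 0.86 ± 0.08 in the clones against mock was. The phosphatase PTPRE had a higher level in the clones than in wild-type cells (0.44 ± 0.11), with -0.14 ± 0.12 in mock. BNIP3, a receptor for the removal of mitochondria, had -0.46 in mock against wild-type, FAM53B had -0.44, and STK32C and KNDC1, at middling levels, had -0.24 and -0.09.

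Of 8 secreted and surface proteases and receptors, 0 were called lower (0.375% of all genes) or higher (0.299% of all genes) in mock than in wild-type cells, and 1, ADAM12, was called higher in both clones than in mock (0.407% of all genes). ADAM12, a surface metalloprotease, had the largest distance between group means of the expressed genes, with levels (probe set 7936968) of 9.39, 9.35 and 10.06 in clone 7, 9.80, 10.23 and 9.24 in clone 8, 8.73, 8.70 and 8.75 in mock, and 8.98, 9.04 and 9.05 in wild-type cells. All clone arrays lay above the wild-type arrays and mock lay below, but the cultures of each clone differed widely, with an SD of 0.40 in clone 7 and 0.50 in clone 8, against 0.02 in mock and 0.04 in wild-type cells. ADAM12 was 0.95 ± 0.19 higher in the clones than in mock and 0.65 ± 0.19 higher than in wild-type cells, and its difference in mock against wild-type was -0.30 ± 0.22. The SE of that last difference is pooled over all groups, and so takes in the wide spread of the clones. HTRA1, a secreted serine protease, had -0.01 ± 0.10 in mock against wild-type and 0.24 ± 0.09 in the clones against wild-type. ADAM8, MMP21, CPXM2, DMBT1, GPR26 and CLRN3 were at middling levels or near background and ranged between -0.07 (CLRN3) and 0.06 (DMBT1) in mock against wild-type.

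Of the 10 remaining genes, 1 was called lower in mock than in wild-type cells (0.375% of all genes) and 0 were called higher (0.407% of all genes) or lower (0.32% of all genes) in both clones than in mock. This was DPYSL4, a member of the collapsin response mediator family, at -0.64 ± 0.07. CALY, which encodes the endosomal protein calcyon, counted as expressed but had -0.01 ± 0.12. TACC2, a centrosomal coiled-coil protein at a middling level, had -0.21 ± 0.06. The other 7 (JAKMIP3, SPRN, FANK1, LRRC27, BTBD16, C10orf90 and SYCE1) had values between -0.18 (LRRC27) and 0.17 (C10orf90).

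**Figure D3:**
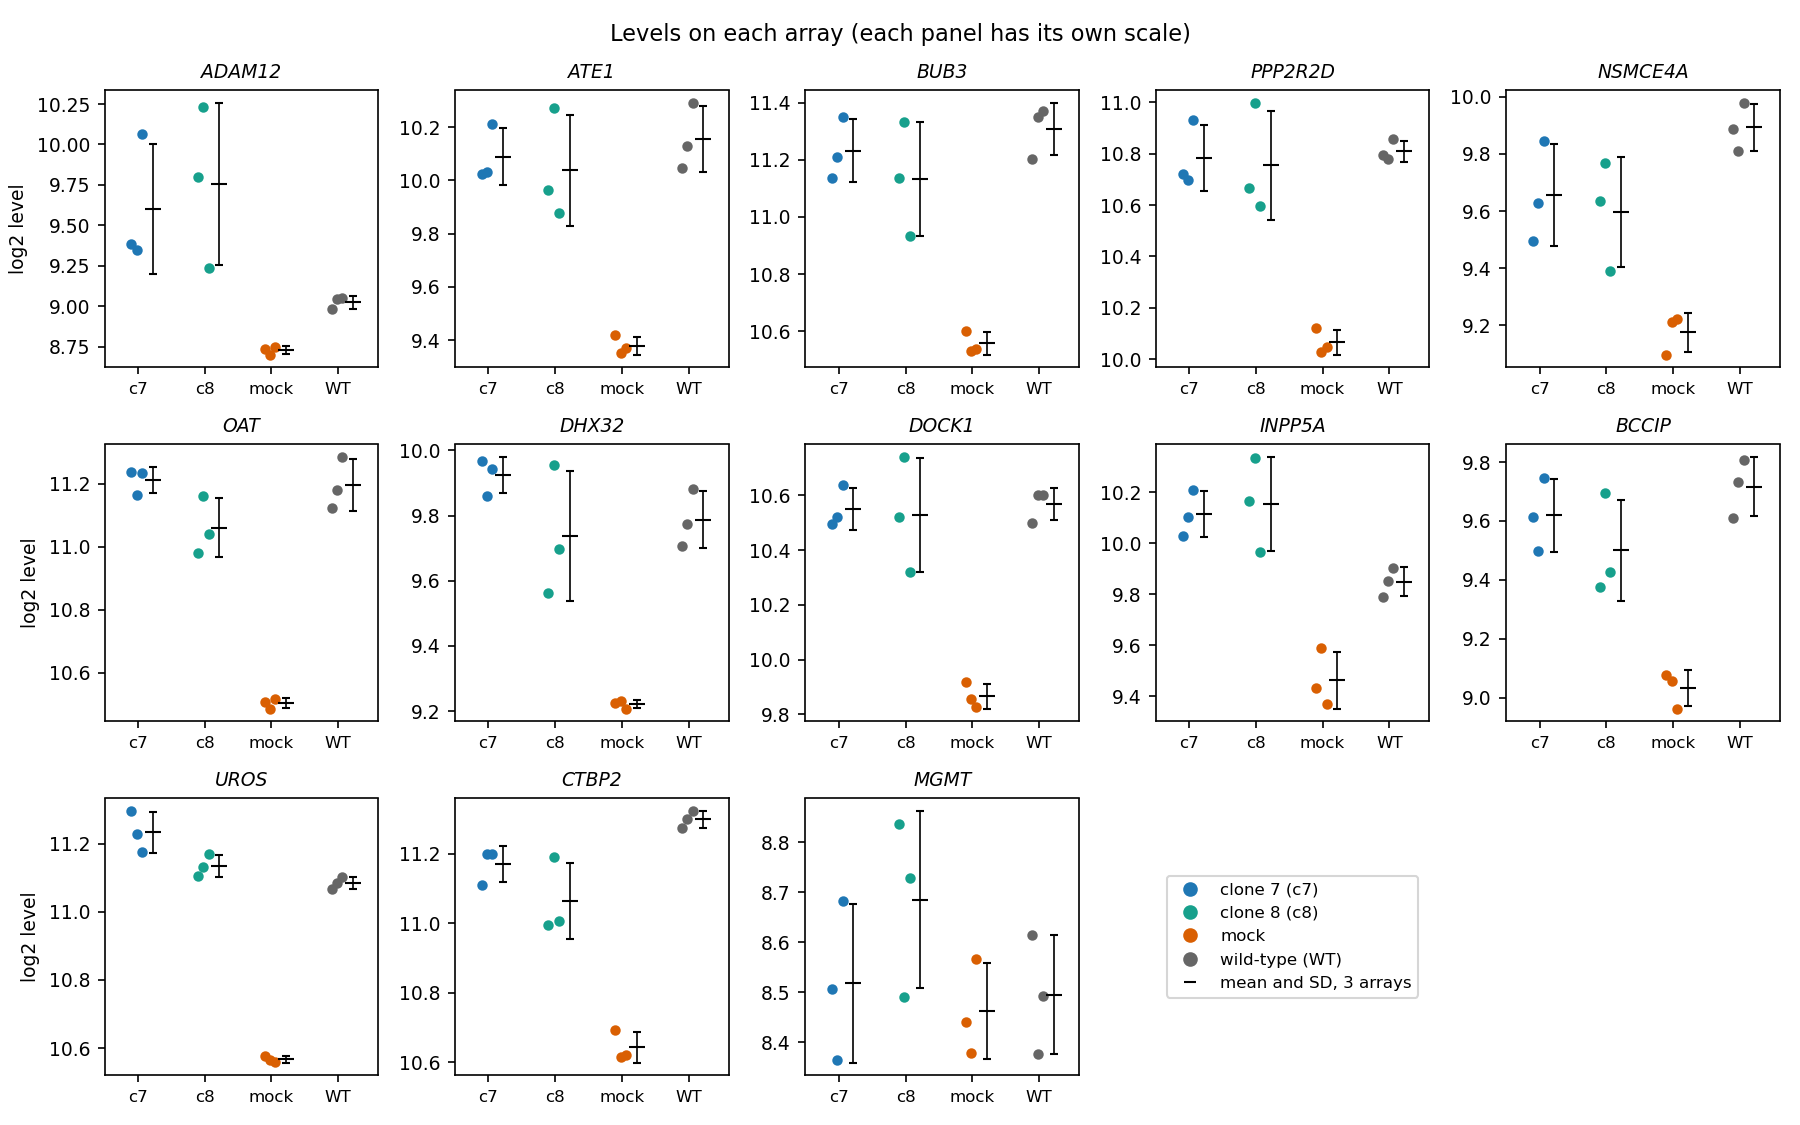
Log2 level on each of the 12 arrays for the 12 expressed genes with the largest distance between group means, and for MGMT, with clone 7, clone 8, mock and wild-type from left to right. Points are arrays, bars are the mean and SD of 3 arrays, and each panel has its own scale, which does not start at 0. In each panel but that of MGMT the 3 mock points lie below all others.

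The comparison that the study was built on, hHSS1 clones against mock, shares the 3 mock arrays with mock against wild-type, so that the values of these comparisons are not independent. In both clones against mock, 13 of the 58 genes were called higher (0.407% of all genes) and 0 lower (0.32% of all genes). By the adjusted p alone 27 were higher (2.87% of all genes) and 0 lower (3.51% of all genes). The 13 were ATE1, PLEKHA1, IKZF5, BUB3, OAT, ZRANB1, UROS, DHX32, ADAM12, DOCK1, PPP2R2D, INPP5A and TUBGCP2. Of the 28 expressed genes 27 lay above mock, with a median of 0.51, against -0.03 over all expressed genes, and TCERG1L lay at -0.09. The call of ADAM12 was lost without any 1 of the mock replicates, that of TUBGCP2 without mock replicate 2 or once array medians were subtracted, and those of BUB3, DHX32 and TUBGCP2 without clone 8 replicate 2.

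Each clone alone gave a like median over the expressed genes, 0.54 in clone 7 against mock and 0.49 in clone 8 against mock. In clone 7 against mock 14 genes were called higher (0.467% of all genes), and in clone 8 against mock 9 were (0.304% of all genes). In each, 0 were called lower, beside 43 of all 18417 genes in clone 7 against mock and 84 in clone 8 against mock. The count called higher in clone 8 was 3 without clone 8 replicate 2 and 6 without mock replicate 2 or mock replicate 3. Clone 8 replicate 2 was the array on which the 28 genes were highest in that clone. The 20 expressed genes before ATE1 were also highest there. Their median distances from the wild-type mean were 0.07, 0.21 and -0.04 on clone 8 replicates 1, 2 and 3. In clone 8 against clone 7, 0 genes were called (0.0% of all genes), and 3 of 58 had an unadjusted p under 0.05 in limma, or 5.17%, against 7.21% of all genes. The median difference between clone 8 and clone 7 was -0.03 in the expressed genes and 0.10 in the 11 genes near background, all 11 of which were higher in clone 8. The median over all genes near background was 0.07 in that comparison, and clone 8 replicate 1 had the highest lower quartile of the 12 arrays, 7.12. The part of that array in the values near background was not tested.

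In both clones against wild-type, where no mock mean enters, the expressed genes of the segment lay close to 0. The median over the 28 expressed genes was -0.03, with 26 of 28 within 0.3 of wild-type in clone 7 and 25 of 28 in clone 8. ADAM12 was the 1 gene called higher (0.907% of all genes), and the call was lost without most single arrays and under 5 other settings. By the adjusted p alone 6 genes were higher (4.63% of all genes), namely ADAM12, CHST15, FANK1, INPP5A, PLEKHA1 and PTPRE, and 0 were lower (5.32% of all genes). Among these 6, PLEKHA1 was also lower in mock than in wild-type cells by the adjusted p alone, INPP5A fell just short of that (adjusted p = 0.0536), and CHST15 and FANK1 gave -0.06 and -0.07 in mock against wild-type.

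**Figure D4:**
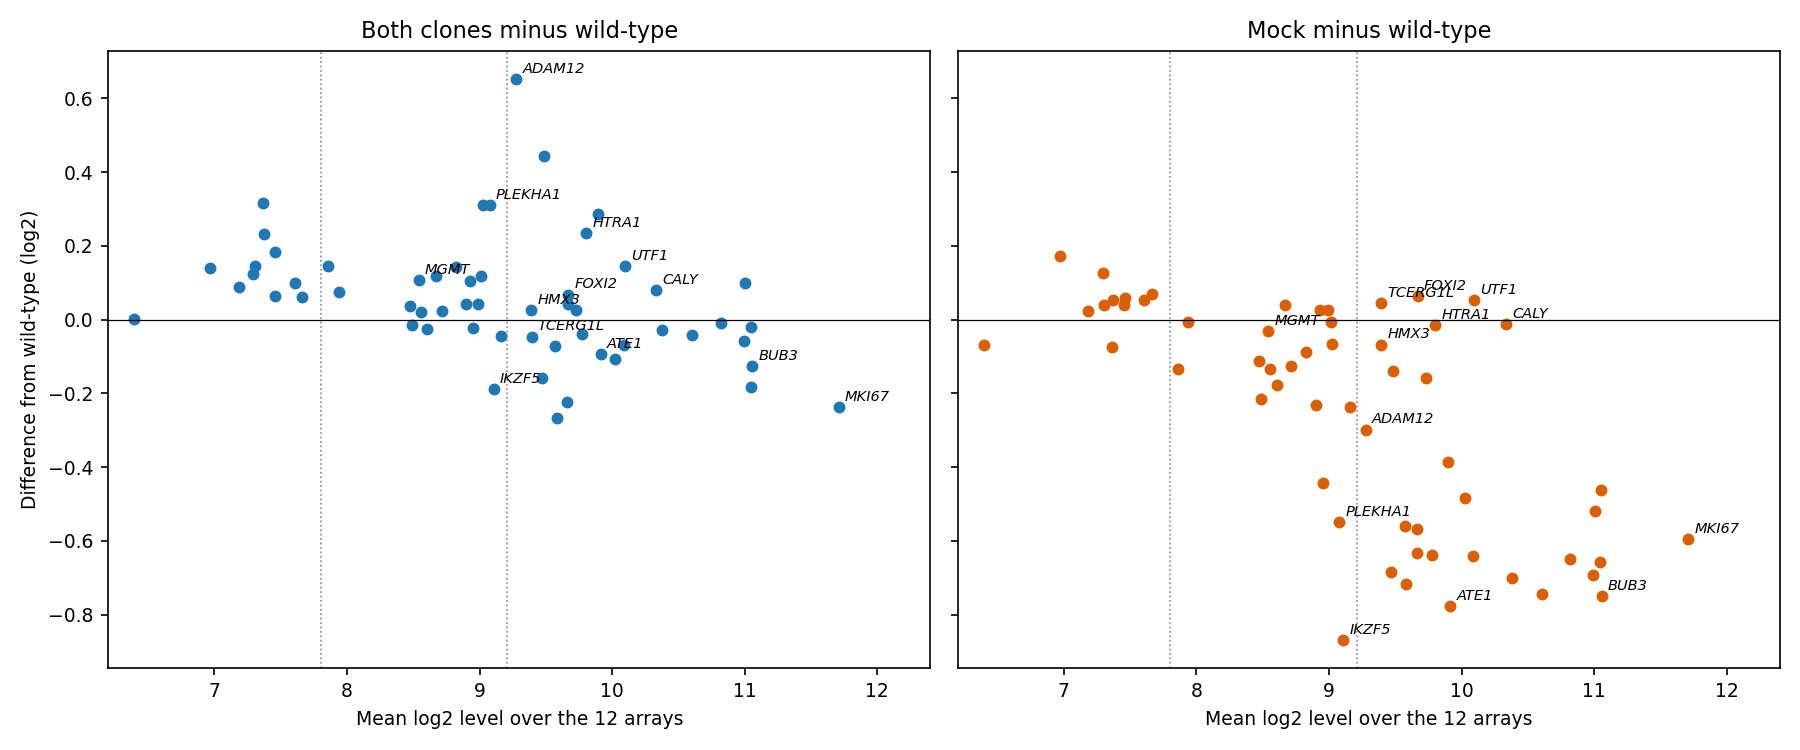
Difference from wild-type (log2) against the mean log2 level over the 12 arrays for the 58 genes, in both clones (left) and in mock (right). Dotted lines mark the lower quartile and the median of all gene means, and some genes are named. In mock, points left of the first dotted line lie near 0 and most points right of the second lie between -0.4 and -0.8, with HTRA1, CALY, UTF1, FOXI2, TCERG1L and HMX3 near 0.

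The limits of the level classes were not sharp. ADAM12, with a mean of 9.28, lay just inside the expressed class and STK32C, at 9.16, just outside it, while PSTK, a kinase of selenocysteine synthesis, at 7.86, and EBF3, at 7.66, lay on either side of the limit for background. With the limit for expressed genes moved down to the lower quartile, the median of mock against wild-type over 47 genes was -0.24. Of the 28 expressed genes, 6 lay within 0.1 of wild-type in mock (HTRA1, HMX3, FOXI2, TCERG1L, UTF1 and CALY).

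Along the chromosome, the median of the expressed genes was low in mock in each portion of the stretch. In gene order, the median of mock against wild-type was -0.66 in the 9 expressed genes from ATE1 to EDRF1, -0.52 in the 9 from UROS to GLRX3, and -0.42 in the 10 from TCERG1L to MTG1. The last of these held TCERG1L, UTF1, CALY and PAOX, with values between -0.16 and 0.05, beside PPP2R2D, DPYSL4 and TUBGCP2, which were called. On the centromere side of ATE1, 40 measured genes were examined, of which 20 were expressed. The median over the 20 was 0.03 in mock against wild-type. Of the 20, 0 were called lower (0.375% of all genes) or higher (0.299% of all genes), and 0 had all mock arrays below the 9 others (2.5% of all genes). Of all 40, 0 were called lower and 1 higher (0.375% and 0.299% of all genes). In 1 of the 40 all mock arrays lay below the 9 others (2.5% of all genes). The 3 nearest measured genes, FGFR2, WDR11 and LINC01561, gave 0.06, 0.005 and -0.10, but FGFR2 and WDR11 were near background and LINC01561 was at a middling level. The nearest expressed genes, named after their values were seen, were PLPP4, a lipid phosphatase, with 0.66 ± 0.19 in mock against wild-type and 1.19 ± 0.17 in the clones against wild-type, and SEC23IP, which acts in vesicle export, with -0.002 ± 0.069 in mock against wild-type. Of 236 expressed genes on the rest of 10q the median was 0.03, and of 79 on the short arm it was 0.01.

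The measured genes of the same stretch that the list leaves out numbered 20, of which 4 were called lower in mock than in wild-type cells (0.375% of all genes). They were ABRAXAS2 (-0.89 ± 0.11), C10orf88 (-0.78 ± 0.08), EEF1AKMT2 (-0.75 ± 0.11) and ACADSB (-0.65 ± 0.11), an acyl-CoA dehydrogenase of isoleucine breakdown. Of the 6 expressed ones, 5 lay below wild-type, with a median of -0.62, close to that of the 28 listed genes.

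Other genes that repair alkylated DNA or mismatches, the pathways that act beside MGMT, were set beside the 10q genes. Values of 15 such genes were used. In mock against wild-type and in both clones against mock, 0 of the 15 were called (0.375% and 0.32% of all genes were lower, 0.299% and 0.407% higher), with medians of 0.03 and -0.06. By the adjusted p alone 2 of them lay lower in the clones than in the mock line (3.51% of all genes), EXO1, an exonuclease of mismatch repair, at -0.57 ± 0.13, and PARP1, a sensor of DNA breaks, at -0.42 ± 0.07.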

How the data were processed

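Expression was profiled in 12 cultures of A172 cells in 4 groups of 3. The authors summarized and normalized the arrays and deposited log2 levels for 33297 probe sets, of which 0 were missing on the 12 arrays. The submitters' processing notes name Partek without a version, and the study's methods name dChip or Partek, with the kind of normalization not given in the sources used here. Precision is set by the number of arrays, and the levels carry no detection calls.

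Genes were named from the platform annotation. Probe sets with 1 symbol (19460) were used, those with several (1754) or no listed symbol (12083) were not, and the probe set with the highest mean was kept for the 769 genes with several. RefSeq gene and promoter tables (GRCh38.p14) gave gene order and promoter sequences. Positions of the authors' build were not used. A linear model of the 4 group means was fitted to all 18417 genes with limma 3.58.1 (lmFit, eBayes) in R 4.3.3, with 6 contrasts and Benjamini-Hochberg adjustment over all genes of each. Each SE rests on 1 estimate of the spread per gene, shared by the 4 groups. The script was tested on simulated data. Lists and figures were made in Python 3.11.15 with pandas 2.3.3, numpy 2.4.6 and matplotlib 3.10.9.

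The genes, lists and classes were chosen with earlier results of these data known. Values on each array were given for MGMT and for the 12 expressed genes with the largest distance between the highest and lowest group means, and other genes were named by list, as up to 4 unlisted genes of the segment, or as the 3 measured genes nearest to ATE1. Alternatives left out each array in turn, added the replicate number as a block, renormalized the arrays (quantile, or medians subtracted), used a trended robust eBayes or only the groups compared, averaged probe sets, dropped genes below the lower quartile of gene means, dropped the fold limit, or moved the limit for expressed genes.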

Additional observations from a re-analysis of the deposited data

How the results depend on the processing

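The count of genes lower in mock than in wild-type cells ranged between 12 and 17 and the median over the expressed genes between -0.5963 and -0.5414 when single arrays were left out. For both clones against mock these ranges were 10 to 14 and 0.4806 to 0.5349, for clone 7 against mock 13 to 15 and 0.4687 to 0.5753, and for clone 8 against mock 3 to 11 and 0.3887 to 0.5228, with the lowest values of clone 8 both without clone 8 replicate 2. For both clones against wild-type they were 0 to 1 and -0.06456 to -0.001188, and for clone 8 against clone 7 the count was 0 throughout and the median lay between -0.09129 and 0.0305. None of the called genes changed sign under these settings. The 1 gene called in both clones against wild-type, ADAM12, was lost, leaving 0, under the replicate block, quantile normalization, subtracted array medians, the trended robust eBayes and the fit on only those groups. With no fold limit the count was 27 in both clones against mock (2.87% of all genes higher, 3.51% lower). It was 23 in clone 7 against mock (336 of all 18417 genes higher, 243 lower). In clone 8 against mock it was 25 (363 of all 18417 genes higher, 575 lower). In both clones against wild-type it was 6 (4.63% of all genes higher, 5.32% lower). Moving the limit for expressed genes to the lower quartile added the genes at middling levels (47 genes in all). The medians were then -0.238 in mock against wild-type, 0.3765 in both clones against mock, 0.4157 in clone 7 against mock and 0.3373 in clone 8 against mock.

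Under the replicate block the count was 14 in mock against wild-type, 13 in both clones against mock and 7 in clone 8 against mock. The replicate numbers did not pair the arrays: the deviations of 18 same-numbered pairs correlated between -0.832 and 0.446, with 4 over 0.1, and 2 of 12 arrays correlated best with their own number in another group. Dim probe sets hold little signal, so that a difference in the genes near background may not be detectable. At middling levels, where MGMT lay, 1 of 19 listed genes was called lower in mock than in wild-type cells (0.375% of all genes). This was IKZF5, at -0.87, and the unlisted ACADSB, also at a middling level, was called at -0.65. Whether the MGMT probe set would show such a difference was not tested.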

Other observations

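ECHS1, an enzyme of fatty acid breakdown that lies in the same stretch but is not on the list, was named after its values were seen. It averaged 10.88 in clone 7, 10.89 in clone 8, 10.23 in mock and 10.73 in wild-type cells, and was called higher in the clones than in mock (0.65 ± 0.06) but not lower in mock than in wild-type cells (-0.50 ± 0.07).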
